A study of Mus musculus with 21 samples.

Results

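The 39 Hox genes of the 4 mouse clusters were followed through a chemical reprogramming series, in which fibroblasts were turned into pluripotent stem cells with small molecules. Members were the genes whose deposited symbol is Hox, then a, b, c or d, then a number only, which gave 39 of the 43436 genes listed in every library. They comprise 11 Hoxa genes, 10 Hoxb genes, 9 Hoxc genes and 9 Hoxd genes. RNA-seq was made from 21 libraries in 10 groups, and the deposited values are FPKM (fragments per kilobase of transcript and per unit of sequencing depth), a level that is already divided by gene length. Here a gene is called detected in a library at 1 FPKM or more.

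The starting cells were mouse embryonic fibroblasts (MEF, 2 libraries) from E13.5 embryos. Cells under induction were sampled at day 12, day 20, day 26 and day 28 (1 library each) and at day 16 (2 libraries), and the 6 are called intermediate libraries. The end product was 7 lines of chemically induced pluripotent stem cells (CiPSC), labelled C1 to C3, G1 and G3, and N4 and N6, and what these letters stand for was not given in the sources used here. Embryonic stem cells (ESC, 2 libraries) came from embryos of day 3.5. MEF, the intermediate cells, CiPSC and the first ESC library carry the strain label C57BL/6J-Tg(GOFGFP)11Imeg/RbrcxICR, a reporter strain, and the second ESC library is C57BL/6 (B6)N. Extraembryonic endoderm (XEN) cells, the cell type of the early yolk sac lining, came in a pair of kinds from wild-type ICR mice. CeXEN cells (2 libraries) were derived from day 3.5 embryos in the stage 1 reprogramming medium with VC6TFAE, a compound set known here only by that code, and 20 ng/ml bFGF. eXEN cells (2 libraries) are a single established line that was received as a gift. Its first library was grown in stage 1 medium with VC6TF and 20 ng/ml bFGF and its second in conventional XEN medium, so the eXEN libraries differ in medium. The labels do not say that libraries of a group are separate cultures, so p-values here measure only the spread between libraries, which may be technical.

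Hox genes encode homeodomain transcription factors that give cells a position along the head-to-tail axis and along the limbs. In each cluster the genes lie in the order in which they are used: low paralog numbers act in the hindbrain and neck, middle numbers in the thorax, and high numbers in the lumbar, sacral and tail regions, the distal limb and the genital tract. Fibroblasts keep such a code in culture, pluripotent cells hold most of the clusters silent under Polycomb marks, and extraembryonic endoderm carries no body-axis code of this kind. Paralog groups 1 to 3 are called anterior below, 4 to 8 central and 9 to 13 posterior, which puts 8, 15 and 16 members in those classes.

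Promoter sequences of 4 members with different courses are shown, as RefSeq (GRCm38.p6) gives the 250 bases before the annotated start on the gene's own strand, 5′ to 3′. Hoxa13, a gene of the digits and hindgut, lies on the minus strand and its stretch is chr6:52260881-52261130. Hoxb1, the hindbrain segment gene, is on the plus strand with chr11:96365508-96365757. Hoxb8, a thoracic and limb gene, is on the plus strand with chr11:96281655-96281904. Hoxc4, a gene of the neck and upper thorax, is on the plus strand with chr15:103034145-103034394, an internal start that lies inside the deposited Hoxc4 row. Capitals mark matches, on either strand, to the PBX-HOX element TGATNNAT, the retinoid half-site AGGTCA or the CCAAT box, 3 motifs that do not overlap in these stretches.
Hoxa13: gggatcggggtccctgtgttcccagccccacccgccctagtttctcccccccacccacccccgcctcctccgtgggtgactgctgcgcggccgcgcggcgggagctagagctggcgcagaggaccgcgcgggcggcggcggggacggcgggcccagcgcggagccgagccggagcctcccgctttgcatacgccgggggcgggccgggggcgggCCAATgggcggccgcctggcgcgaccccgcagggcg
Hoxb1: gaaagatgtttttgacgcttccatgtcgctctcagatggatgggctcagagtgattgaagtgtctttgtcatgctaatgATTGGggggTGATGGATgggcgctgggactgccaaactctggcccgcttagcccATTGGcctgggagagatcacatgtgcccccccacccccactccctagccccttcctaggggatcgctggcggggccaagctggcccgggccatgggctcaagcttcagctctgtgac
Hoxb8: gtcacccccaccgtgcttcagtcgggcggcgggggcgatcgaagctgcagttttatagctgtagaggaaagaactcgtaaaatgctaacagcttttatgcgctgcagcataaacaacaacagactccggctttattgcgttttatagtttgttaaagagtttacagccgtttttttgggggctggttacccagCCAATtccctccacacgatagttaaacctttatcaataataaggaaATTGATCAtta
Hoxc4: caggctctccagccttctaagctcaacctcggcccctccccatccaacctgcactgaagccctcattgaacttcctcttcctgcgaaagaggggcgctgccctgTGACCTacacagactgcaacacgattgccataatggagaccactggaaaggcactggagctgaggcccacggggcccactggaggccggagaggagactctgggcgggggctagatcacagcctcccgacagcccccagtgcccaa
In these stretches the PBX-HOX element was found once in Hoxb1 and once in Hoxb8, the retinoid half-site once in Hoxc4, and the CCAAT box in Hoxa13, Hoxb1 and Hoxb8. RefSeq entries matched 22 of the 39 members, with 24 start sites. Of those 24 stretches, 4 (16.7%) held TGATNNAT against 7.68% of all 32851 promoters of the same length, 6 (25%) held AGGTCA against 14.02%, and 14 (58.3%) held CCAAT against 33.8%. The Hox stretches had a median of 12.5 CG dinucleotides (range 2 to 35) against 6 in all promoters, and a median G or C content of 58.6% against 52.4%. A match is a description of letters, not a bound site.

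The 21 libraries list between 11240 and 13982 genes at 1 FPKM or more. From the size of the smallest values, relative depth runs from 0.401 times that of the first ESC library (CiPSC C3) to 1.57 times (CiPSC N4). Hox values near detection, between 0.8 and 1.2 FPKM, have a median effective number of fragments of 18.4 (65 values, 0.983 to 38.9). This number was computed from each value and its deposited upper confidence bound, so it measures precision and is not a count. In 4 libraries (day 12, the first of day 16, day 20 and day 26) the tables mark 446 genes as having too little data to assemble, a status that no other library uses, so the authors' processing of these 4 may have differed. Cell type labels held against their markers: 8 fibroblast genes summed to 2714 and 10420 FPKM in MEF. The 6 XEN genes summed to between 708 and 1568 in the intermediate libraries and between 1490 and 3744 in XEN cells. The 6 pluripotency genes summed to between 3854 and 4649 in CiPSC. In the intermediate libraries they summed to 20.4 FPKM at day 12 and to 153 and 4.50 at day 16. Their sums were 125 at day 20, 618 at day 26 and 310 at day 28, so these libraries differ in pluripotency markers. Where Hox genes overlap another gene's row (Hoxa3 with Hoxa4, Hoxa5 and Hoxa6, Hoxc5 with Hoxc6, Hoxc8, Hoxc9 and Hoxc10, Hoxd3 with Hoxd4, and others with antisense RNAs), the division of fragments is uncertain, since the strand setting of the counting was not given in the sources used here.

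Summed Hox mRNA stayed between 56.7% and 101% of the MEF mean in the intermediate libraries and was low in XEN cells, ESC and CiPSC. The 39 genes added up to 157 and 209 FPKM in MEF. The intermediate libraries held 182 FPKM at day 12, 104 and 186 at day 16, 158 at day 20, 106 at day 26 and 117 at day 28. Of these 6 sums 3 are inside the MEF range and 3 lie below it. The XEN cells had 15.3 and 30.0 FPKM in CeXEN and 19.5 and 15.6 in eXEN, ESC had 26.8 and 21.01, and CiPSC ran from 7.28 to 41.3 with a median of 21.03. No library of XEN cells, ESC or CiPSC reached the lowest intermediate library. The 6 intermediate libraries (142 ± 37.8 FPKM, SD), pooled over days, were above the 4 XEN libraries (20.1 ± 6.85) by 122 FPKM, with exact two-sided permutation p = 0.00952 (0.0143 adjusted over 3 tests), and above the 7 CiPSC lines (21.3 ± 11.8) by 121 FPKM, with exact permutation p = 0.00117 (adjusted 0.0035). Each p is the smallest that its design can give. CiPSC and ESC (23.9 ± 4.13) differed by -2.64 FPKM, with exact permutation p = 0.833 where 0.0556 is the smallest possible. In bulk RNA, fewer cells that carry a Hox code and less Hox mRNA in each cell cannot be told apart.

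**Figure D1:**
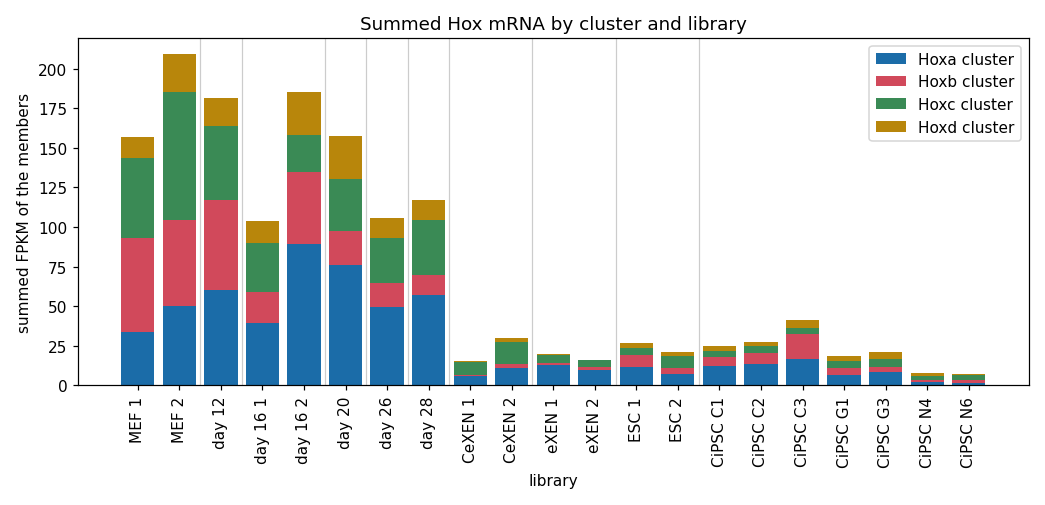
Summed FPKM of the Hoxa, Hoxb, Hoxc and Hoxd genes in each of the 21 libraries, stacked by cluster on a linear axis from 0. The MEF and intermediate bars reach 104 to 209 FPKM and every other bar ends at or under 41.3 FPKM.

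The 4 clusters did not move together during induction. The Hoxa genes summed to 33.9 and 50.3 FPKM in MEF and to 60.3, 39.5, 89.4, 75.8, 49.7 and 56.8 FPKM in the intermediate libraries in order of day, so that 4 of these 6 are above both MEF libraries. The Hoxb genes summed to 59.1 and 54.2 FPKM in MEF and to 56.5, 19.7, 45.2, 21.8, 14.9 and 12.8 FPKM along the course. Past day 12 every Hoxb sum is below both MEF libraries. The Hoxc genes had 50.5 and 80.7 FPKM in MEF and 23.5 to 47.2 FPKM in the intermediate libraries, all below MEF. The Hoxd genes had 13.46 and 23.9 FPKM in MEF and 12.2 to 27.5 FPKM in the intermediate libraries, around the MEF values. As a share of all Hox FPKM, Hoxa went from 21.6% and 24.0% in MEF to 48.6% at day 28, while Hoxb went from 37.7% and 25.9% to 10.9%. These cluster sums were not tested.

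MEF carried a trunk-centred code with most members present. In each MEF library 28 of 39 members were detected, and 26 were detected in both. Of those 26, 14 are central (of 15), 9 posterior (of 16) and 3 anterior (of 8). Summed by paralog group, the MEF levels were highest in groups 6, 8, 9 and 10. Group 9 had 31.1 and 40.3 FPKM, group 8 24.8 and 38.2, group 6 25.7 and 32.0 and group 10 16.7 and 37.5. Groups 4, 5 and 7 were lower, with 12.8 and 12.5, 8.60 and 8.41, and 10.1 and 13.1 FPKM. These sums also depend on the number of members, which is 4 in group 9 and 2 in group 7. The 5′ end was low, with 0.667 and 0.361 FPKM in group 12 and 1.49 and 2.40 in group 13. The highest members were Hoxc6, the thoracic and forelimb gene, at 17.2 and 27.3 FPKM and Hoxb9, a gene of the thoracic ribs, at 16.4 and 19.3 FPKM. The members not detected in either MEF library were Hoxb1, Hoxb13, Hoxc12, Hoxc13, Hoxd1, Hoxd3, Hoxd10, Hoxd12 and Hoxa13, all of them in paralog groups 1, 12 and 13 except Hoxd3 and Hoxd10.

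**Figure D2:**
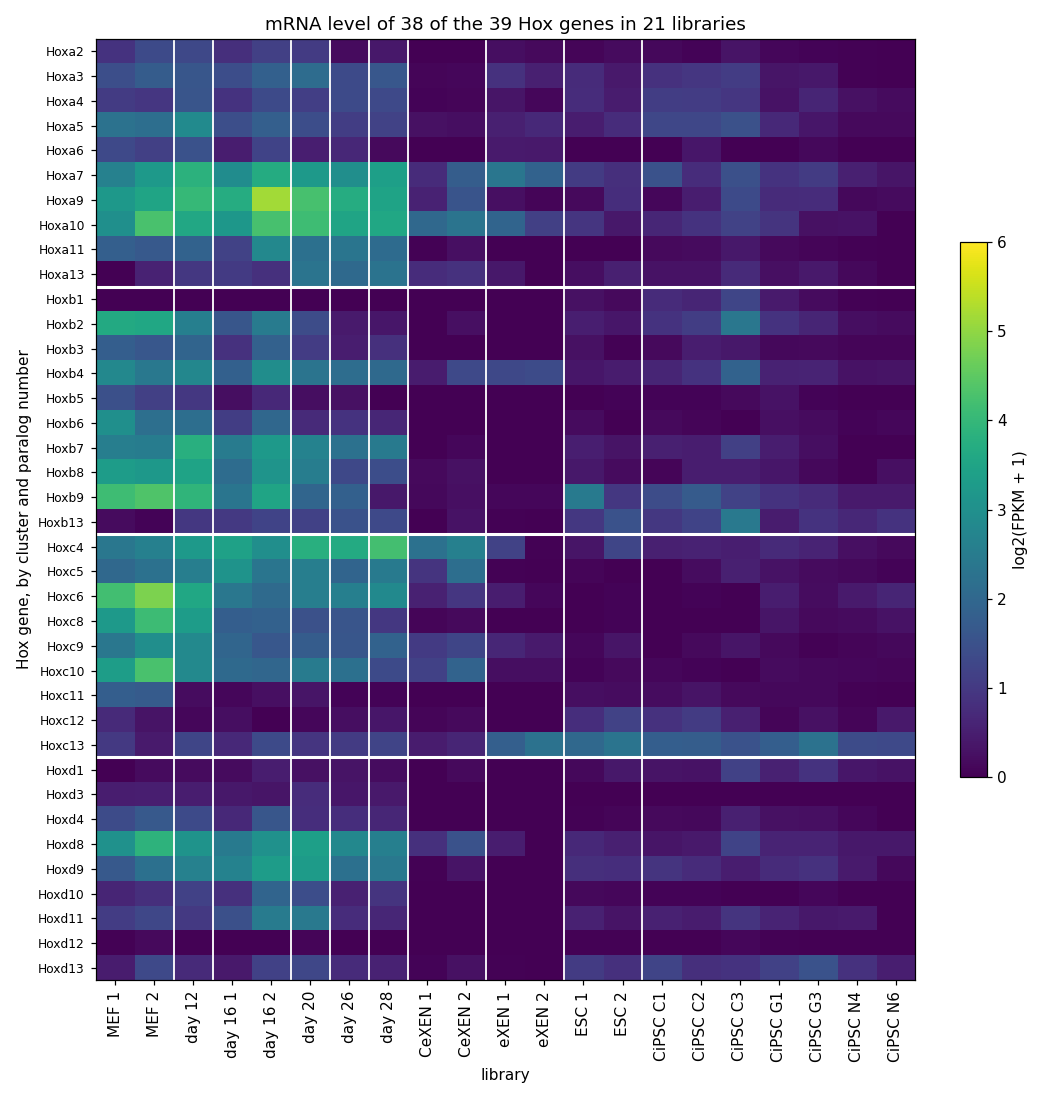
Level of 38 of the 39 Hox genes, as log2(FPKM + 1) in colour, in the 21 libraries in columns, with genes in rows by cluster and paralog number. The middle rows of each cluster are bright in MEF and the intermediate libraries and dark in XEN cells, ESC and CiPSC, where Hoxc13 is the brightest row shown by group mean in ESC and CiPSC.

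In the Hoxa cluster the MEF level was carried by Hoxa10, Hoxa9 and Hoxa7. Hoxa9, a gene of the lower trunk and of blood stem cells, read 8.22 and 10.4 FPKM in MEF, then 15.2 at day 12, 12.2 and 35.2 at day 16, 18.0 at day 20, 12.1 at day 26 and 10.2 at day 28. It read 0.477 and 1.96 in the CeXEN libraries, 0.184 and 0.0656 in the eXEN libraries, 0.115 and 0.736 in ESC and 0.0777 to 1.54 over the 7 CiPSC lines with a median of 0.388. Hoxa9 was the highest Hox gene at day 12, 16, 20 and 26, and no library of XEN cells or pluripotent cells reached 2 FPKM. At day 16 the log2 difference of Hoxa9 from MEF was 1.09 ± 0.49 (SE; limma, adjusted p = 0.116), which did not pass.

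Hoxa10, which patterns the lumbar region and the uterus, read 6.92 and 18.3 FPKM in MEF, then 11.1 at day 12, 8.03 and 18.2 at day 16, 16.7 at day 20, 10.3 at day 26 and 10.9 at day 28. Its level was 3.10 and 3.92 in the CeXEN libraries, 2.81 and 1.19 in the eXEN libraries, 0.913 and 0.316 in ESC and 0 to 1.27 over the 7 CiPSC lines with a median of 0.554. All 6 intermediate values of Hoxa10 fall between the MEF values, and the CeXEN libraries keep more of it than the pluripotent ones. Hoxa7, a thoracic gene, read 5.22 and 8.42 FPKM in MEF, then 13.6 at day 12, 6.55 and 11.9 at day 16, 8.36 at day 20, 6.75 at day 26 and 9.39 at day 28. It was at 0.669 and 2.42 in the CeXEN libraries, 4.08 and 2.67 in the eXEN libraries, 1.06 and 0.750 in ESC and 0.256 to 1.87 over the 7 CiPSC lines with a median of 0.832. Hoxa7 is therefore one of the 2 highest Hox genes of eXEN cells, below every MEF and intermediate library.

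Hoxa13, at the 5′ end of the cluster, took another course. It read 0 and 0.498 FPKM in MEF, then 0.961 at day 12, 1.02 and 0.770 at day 16, 3.97 at day 20, 3.16 at day 26 and 3.84 at day 28, so that the values from day 20 on stand apart from the earlier ones. The neighbour Hoxa11, which patterns the forearm, was detected in both MEF libraries (2.55 and 2.18 FPKM) and in all intermediate libraries (1.26 to 5.94 FPKM), and in no XEN, ESC or CiPSC library. Hoxa2 to Hoxa6 were at 0.834 to 3.76 FPKM in MEF, and Hoxa5, a gene of the lung and neck, was the highest of them at 3.76 and 3.47 FPKM.

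The Hoxb cluster lost most of its level along the course. Hoxb9 read 16.4 and 19.3 FPKM in MEF, then 14.3 at day 12, 4.02 and 10.3 at day 16, 2.87 at day 20, 2.58 at day 26 and 0.298 at day 28. It was at 0.0847 and 0.177 in the CeXEN libraries, 0.0764 and 0.0727 in the eXEN libraries, 4.55 and 0.970 in ESC and 0.345 to 2.30 over the 7 CiPSC lines with a median of 0.842. Every intermediate value of Hoxb9 is below both MEF values, and that of day 28 is lower than in ESC. Hoxb2, a hindbrain gene, read 11.5 and 10.8 FPKM in MEF, then 5.05 at day 12, 2.03 and 4.67 at day 16, 1.62 at day 20, 0.358 at day 26 and 0.289 at day 28. Its level was 0 and 0.193 in the CeXEN libraries, 0 and 0 in the eXEN libraries, 0.421 and 0.279 in ESC and 0.131 to 4.23 over the 7 CiPSC lines with a median of 0.824. By day 26 Hoxb2 had passed under detection and into the range of the ESC libraries.

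Hoxb8 read 8.99 and 8.18 FPKM in MEF, then 10.1 at day 12, 3.37 and 7.57 at day 16, 4.85 at day 20, 1.48 at day 26 and 1.65 at day 28. It read 0.106 and 0.203 in the CeXEN libraries, 0 and 0 in the eXEN libraries, 0.305 and 0.136 in ESC and 0 to 0.391 over the 7 CiPSC lines with a median of 0.195. Hoxb8 was below detection in every XEN and pluripotent library. Hoxb7 and Hoxb4, central genes of the same cluster, remained at 3.12 FPKM or more at day 28, while Hoxb3, Hoxb5 and Hoxb6 were all under 1 FPKM there. Hoxb13, which marks the tail end and the prostate, was at 0.124 and 0.0338 FPKM in MEF, 0.949 to 1.85 FPKM in the intermediate libraries and 0.974 and 1.84 in ESC. Hoxb1 was listed at 0 in all MEF, intermediate and XEN libraries, at 0.199 and 0.103 FPKM in ESC and at 0 to 1.40 over the 7 CiPSC lines with a median of 0.356, and passed detection only in line C3.

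In the Hoxc cluster Hoxc6, Hoxc8, Hoxc10 and Hoxc11 were lowered, while Hoxc4 rose and Hoxc5 was above both MEF values in 5 of the 6 intermediate libraries. Hoxc6 read 17.2 and 27.3 FPKM in MEF, then 10.9 at day 12, 4.16 and 3.22 at day 16, 4.93 at day 20, 5.01 at day 26 and 6.18 at day 28. It read 0.472 and 0.933 in the CeXEN libraries, 0.388 and 0.0828 in the eXEN libraries, 0 and 0.0470 in ESC and 0 to 0.541 over the 7 CiPSC lines with a median of 0.157. All intermediate values of Hoxc6 are below both MEF values, and above every XEN and pluripotent value. Hoxc10, a gene of the hindlimb and lumbar motor neurons, read 9.20 and 18.5 FPKM in MEF, then 6.13 at day 12, 3.13 and 2.97 at day 16, 4.68 at day 20, 3.61 at day 26 and 1.55 at day 28, with 1.23 and 2.75 in the CeXEN libraries, 0.176 and 0.168 in the eXEN libraries, 0.0440 and 0.114 in ESC and 0 to 0.126 over the 7 CiPSC lines with a median of 0.0794. One CeXEN library holds more Hoxc10 than the day 28 library. Hoxc8, a thoracic gene, read 8.53 and 16.3 FPKM in MEF, then 9.01 at day 12, 2.49 and 2.66 at day 16, 1.79 at day 20, 1.98 at day 26 and 0.967 at day 28, with 0.0602 and 0.110 in the CeXEN libraries, 0 and 0 in the eXEN libraries, 0 and 0.0389 in ESC and 0 to 0.258 over the 7 CiPSC lines with a median of 0.105. Hoxc8 at day 12 lies between the MEF values and all later values are below them.

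Hoxc4 read 4.17 and 5.09 FPKM in MEF, then 8.50 at day 12, 9.75 and 6.83 at day 16, 12.9 at day 20, 11.6 at day 26 and 17.6 at day 28. It was at 3.74 and 5.14 in the CeXEN libraries, 1.26 and 0.0322 in the eXEN libraries, 0.274 and 1.38 in ESC and 0.105 to 0.634 over the 7 CiPSC lines with a median of 0.445. All intermediate values of Hoxc4 are above both MEF values, and at day 28 it was the highest Hox gene. Hoxc4 was also the highest Hox gene of CeXEN cells. Hoxc13, the hair and nail gene at the 5′ end, read 0.989 and 0.359 FPKM in MEF, then 1.37 at day 12, 0.621 and 1.54 at day 16, 0.888 at day 20, 1.06 at day 26 and 1.35 at day 28. It read 0.378 and 0.527 in the CeXEN libraries, 2.54 and 3.76 in the eXEN libraries, 3.09 and 3.95 in ESC and 1.495 to 3.82 over the 7 CiPSC lines with a median of 2.42. Its CiPSC, ESC and eXEN values are all above both MEF values, the reverse of the central Hoxc genes. Hoxc11 dropped out early, from 2.45 and 2.31 FPKM in MEF to 0.0376 to 0.275 in the intermediate libraries.

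The summed Hoxd level was within or above the MEF range up to day 20. Hoxd8, the cluster's trunk gene, read 7.24 and 13.7 FPKM in MEF, then 7.43 at day 12, 4.47 and 7.18 at day 16, 9.45 at day 20, 5.93 at day 26 and 5.06 at day 28, with 0.768 and 1.85 in the CeXEN libraries, 0.404 and 0 in the eXEN libraries, 0.617 and 0.437 in ESC and 0.260 to 1.33 over the 7 CiPSC lines with a median of 0.324. Hoxd9, a gene of the lower trunk and proximal limb, read 2.21 and 3.67 FPKM in MEF, then 5.21 at day 12, 5.32 and 8.89 at day 16, 8.76 at day 20, 3.65 at day 26 and 4.24 at day 28, with 0.0260 and 0.237 in the CeXEN libraries, 0 and 0 in the eXEN libraries, 0.738 and 0.736 in ESC and 0.0969 to 0.877 over the 7 CiPSC lines with a median of 0.656. Hoxd9 was at or above MEF in the intermediate libraries, with the day 26 value just under the second MEF library. Hoxd4 read 1.57 and 2.20 FPKM in MEF, then 1.53 at day 12, 0.616 and 2.04 at day 16, 0.736 at day 20, 0.725 at day 26 and 0.554 at day 28, and was listed at 0 in all 4 XEN libraries, at 0.0318 and 0.0502 in ESC and at 0 to 0.434 over the 7 CiPSC lines with a median of 0.118. Hoxd10 and Hoxd11, limb genes, peaked at 2.84 and 4.64 FPKM in the second day 16 library and were listed at 0 in all XEN libraries. Hoxd13, the digit gene, was at 0.381 and 1.51 FPKM in MEF, 0.339 to 1.41 in the intermediate libraries, 1.05 and 0.766 in ESC and 0.411 to 1.84 in CiPSC, ranges that overlap. Hoxd3 was under 1 FPKM everywhere and listed at 0 in all XEN and pluripotent libraries, and Hoxd12 never passed 0.116 FPKM.

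Differences between groups were tested with limma on log2(FPKM + 1) over all 16650 genes with at least 1 FPKM in at least 2 libraries, so fold changes of low genes are understated. Calls needed both a log2 difference of 1 or more and an adjusted p below 0.05. Of the 39 members 35 were tested. The other 4 did not pass the filter: Hoxb1, Hoxd1, Hoxd3 and Hoxd12. Most members pass it through MEF or intermediate libraries, so their counts below are a description of these members and not a comparison with other genes.

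At day 16, the only intermediate day with 2 libraries, 6 of 35 Hox genes fell against MEF, where 7.41% of all genes tested were called lower, and 1 rose, where 13.3% of all genes were called higher. Those that fell were 4 genes of the Hoxc cluster and 2 of Hoxb. The Hoxc genes were Hoxc6 with a log2 difference of -2.28 ± 0.29 (SE; limma, adjusted p = 4.69e-05), Hoxc8 with -1.85, Hoxc10 with -1.80 and Hoxc11, a hindlimb gene, with -1.58 ± 0.15 (SE; limma, adjusted p = 4.37e-06). The Hoxb genes were Hoxb2 with -1.55 ± 0.54 (SE; limma, adjusted p = 0.043) and Hoxb6 with -1.04 ± 0.28 (SE; limma, adjusted p = 0.0123). Hoxd9 rose, with a log2 difference of 1.03 ± 0.29 (SE; limma, adjusted p = 0.0175). No Hoxa gene was called. The split depended on the library and the scaling. Without the first day 16 library the median log2 difference of the members was 0.19, and without the second -0.48 (0.23 and 0.15 over all genes). Under quantile scaling 0 members rose and 10 fell, beside 1621 and 1724 of all genes. Under median-of-ratios scaling 0 rose and 9 fell, beside 1631 and 1722 of all genes. In the main fit 2219 of all genes rose and 1233 fell. The main median over the 35 was -0.14, against 0.22 over all genes tested. The groups did not overlap for 9 of 35 with day 16 above MEF (39.2% of all genes) and for 13 with day 16 below (17.7%).

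The day 16 calls outside Hoxc rest on few libraries. The libraries of day 16 themselves differ, at 104 and 186 FPKM of summed Hox. Hoxb2 was lost without any of 3 libraries (log2 difference -1.52 without the first MEF library, -1.59 without the second and -1.10 without the first of day 16). Hoxb6 was lost without the first MEF library (-0.64) or the first of day 16 (-0.58), and Hoxd9 without the first MEF library (0.76) or the second of day 16 (0.71). Hoxd9 also fell short of the log2 threshold under both other scalings (0.78 and 0.79), which bring the median of all genes from 0.22 to 0.01 and 0.02. With the 4 libraries alone in the fit, limma called 0 of 35 members (8 at an unadjusted p under 0.05) and 0 of all genes (24.4% at that unadjusted p). There the 4 Hoxc genes kept their log2 differences, with adjusted p between 0.0596 and 0.144 in limma.

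**Figure D3:**
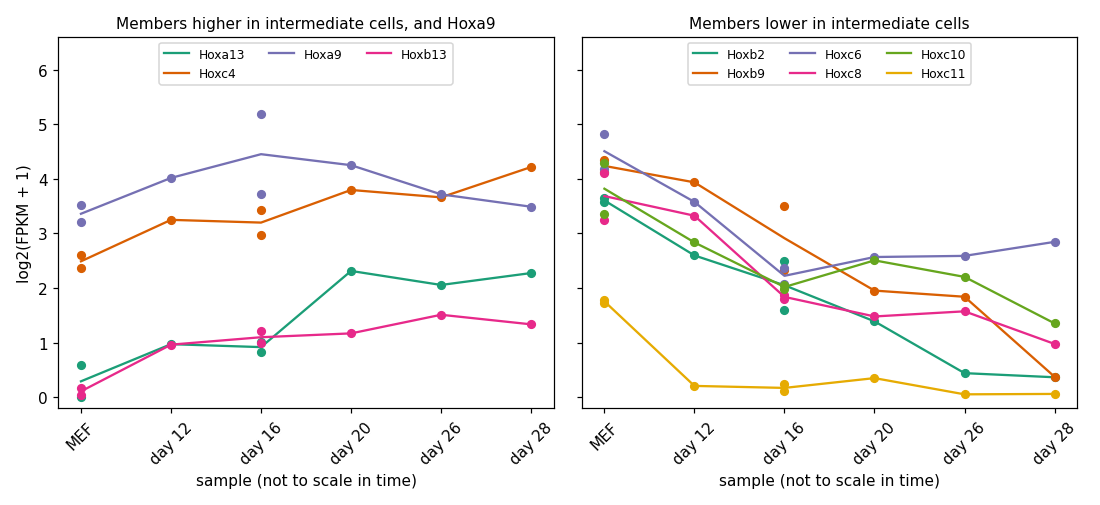
Level as log2(FPKM + 1) against group for Hox genes along the course (lines join the group means), from MEF through day 12, 16, 20, 26 and 28, with 1 point per library. Hoxa13, Hoxb13 and Hoxc4 end above their MEF points, and Hoxb2, Hoxb9 and Hoxc8 end below theirs.

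Averaged over all 5 days of induction with equal weight, 11 of 35 Hox genes were called against MEF. Of these 4 rose (17.1% of all genes were called higher), among them Hoxa13, Hoxb13 and Hoxc4, of which Hoxa13 and Hoxb13 are at the 5′ end of their clusters. The log2 differences were 1.41 ± 0.21 (SE; limma, adjusted p = 0.000104) for Hoxa13, 1.11 ± 0.38 (SE; limma, adjusted p = 0.03) for Hoxb13 and 1.13 ± 0.30 (SE; limma, adjusted p = 0.00754) for Hoxc4. The 7 that fell (9.32% of all genes were called lower) were Hoxb2, Hoxb6, Hoxb9, Hoxc6, Hoxc8, Hoxc10 and Hoxc11. The largest decreases were those of Hoxb2, at -2.23 ± 0.44 (SE; limma, adjusted p = 0.000984), and Hoxb9, at -2.03 ± 0.42 (SE; limma, adjusted p = 0.00131). Hoxc8 followed with -1.85, Hoxc6 with -1.74, Hoxc10 with -1.64, Hoxc11 with -1.59 and Hoxb6 with -1.40. For 4 members all 6 intermediate libraries lay above both MEF libraries (29.8% of all genes) and for 7 below (12.2%).

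By cluster, the median log2 difference of the intermediate cells from MEF was 0.31 over 11 Hoxa genes, -0.92 over 9 Hoxb genes, -0.71 over 9 Hoxc genes and 0.05 over 6 Hoxd genes, beside 0.22 over all genes tested. No Hoxa or Hoxd gene was called lower. By class it was -0.33 over 5 anterior genes, -0.54 over 15 central genes and 0.19 over 15 posterior genes. Differences between clusters were not tested. The call of Hoxb13 was lost without either MEF library (1.17 and 1.05). It was also lost under quantile scaling (0.82) and without the filter on low values (1.11). The same held with the second day 16 library and day 28 alone (1.17), and with only the 4 libraries that mark genes with too little data (1.05). The call of Hoxb6 was lost without the first MEF library (-0.9995), and that of Hoxc4 without the first MEF library (1.02) or that of day 28 (0.99). Hoxc4 also missed the log2 threshold under both other scalings (0.91 and 0.88). In a fit of MEF and intermediate libraries alone 2 members were called higher and 2 lower. Calls among all 16650 genes also fell there, to 1136 higher and 474 lower, from 2844 and 1551.

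**Figure D4:**
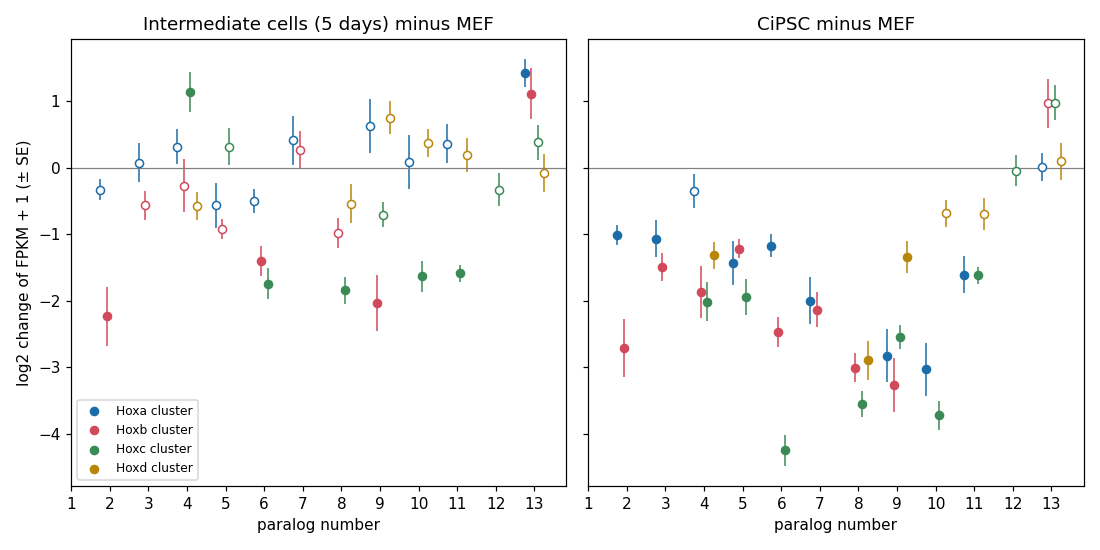
Log2 differences with SE of 34 of the 35 tested Hox genes against paralog number, in intermediate cells against MEF (left) and CiPSC against MEF (right), coloured by cluster, with filled points for called genes and open points for the others. On the left called points lie on both sides of 0 (3 higher and 7 lower among the genes shown), and on the right all 26 called points lie below 0.

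Within the course itself, no member was called for a linear trend on day over the 6 intermediate libraries with limma, and neither was any of all genes tested (background 0%). An unadjusted p under 0.05 was found for 14 of 35 members and for 20.1% of all genes, and the smallest adjusted p was 0.175. On simulated data this trend fit found 30% of genes with a log2 change of 2. The simulated noise was normal, with each gene's spread within groups, and held no differences between days of 1 library. The share found in the real data may therefore differ. The fitted log2 changes from day 12 to day 28 were largest for Hoxb9, at -2.96, Hoxb2, at -2.35, and Hoxb8, at -2.04. Among the upward changes were 1.52 for Hoxa13 and 0.92 for Hoxc4.

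Summed Hox mRNA stayed nearer to its MEF level than fibroblast marker mRNA did. The sum balances rises of some members against falls of others. By cluster, Hoxa stood at 135% of its MEF mean at day 28, Hoxb at 22.5%, Hoxc at 53.5% and Hoxd at 65.5%. At day 28 the summed Hox level was 63.9% of the MEF mean, while the 8 fibroblast genes together stood at 0.143% of theirs (9.40 FPKM), with Col3a1, Pdgfrb, Lum, Dcn and Postn all under 1 FPKM. At day 12 the Hox sum was 99.2% and the fibroblast sum 10.6% of the MEF mean, at day 16 they were 56.7% and 101% beside 2.98% and 5.68%, at day 20 86.2% beside 0.945%, and at day 26 57.7% beside 1.49%. Against the lower MEF library alone, the fibroblast sum at day 28 was 0.346%. The second MEF library's fibroblast sum was 383.9% of the first's. XEN markers, at 3.87 and 6.66 FPKM in MEF, had reached 708 FPKM by day 12. Which cells of the mixture held the Hox mRNA was not tested.

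**Figure D5:**
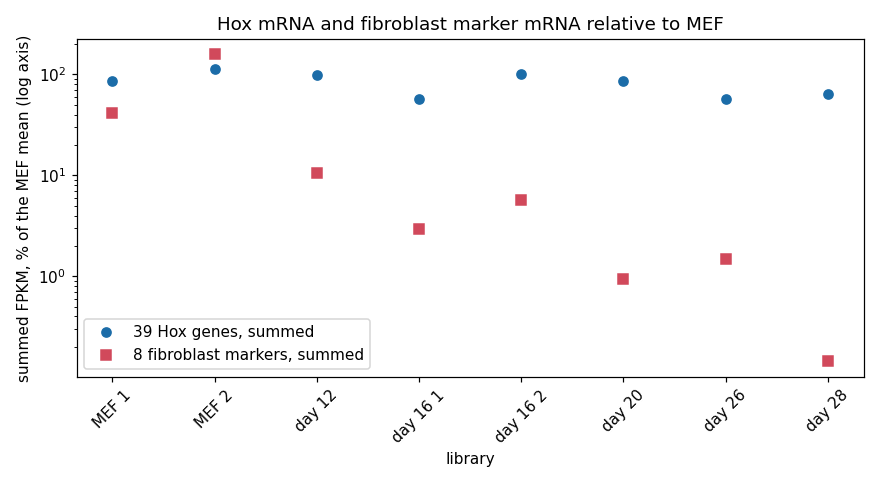
Summed Hox FPKM and summed fibroblast marker FPKM in the MEF and intermediate libraries, each as a percent of its MEF mean on a log axis. The Hox sums of the 6 intermediate libraries are 56.7% to 101% of the MEF mean, while their fibroblast sums run from 10.6% at day 12 to 0.143% at day 28.

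The linear correlation of the 39 levels with those of MEF was lower late in the course than early, with 1 library at every day but day 16. As a description across genes, which are not independent replicates and share their libraries, Pearson's r of log2(FPKM + 1) with the MEF mean was 0.89 at day 12, 0.72 and 0.70 at day 16, 0.57 at day 20, 0.57 at day 26 and 0.43 at day 28. It was 0.40 and 0.47 in CeXEN, 0.18 and 0.05 in eXEN, 0.03 and -0.13 in ESC, and -0.12 to 0.15 over the CiPSC lines. By paralog group, the group 6 sum went from 25.7 and 32.0 FPKM in MEF to 16.2 at day 12, 5.69 and 7.53 at day 16, 5.97 at day 20, 6.45 at day 26 and 6.85 at day 28. The group 4 sum was above both MEF libraries throughout, from 12.8 and 12.5 FPKM to 17.9 at day 12, 13.8 and 17.1 at day 16, 18.8 at day 20, 17.4 at day 26 and 22.8 at day 28. Group 6 was thus below both MEF libraries in every intermediate library, as was group 2 (12.3 and 12.4 FPKM in MEF and at most 6.52 afterwards).

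The intermediate cells express XEN markers, as embryo-derived XEN cells do, but lack their low Hox level. At day 16, 2 of the 6 XEN markers (Lama1 and Sox7) were called lower than in XEN cells, with a list median of -0.95. Of the 8 fibroblast markers 6 were called higher there, with a list median of 3.56. The part of remaining fibroblast mRNA in the Hox difference was not tested. Of 35 members 23 were higher at day 16 than in the mean of CeXEN and eXEN (12.0% of all genes were called higher), and none was lower (1.87% of all genes). The largest log2 differences were those of Hoxa9, at 3.83 ± 0.43 (SE; limma, adjusted p = 2.33e-05), Hoxd9, at 2.90 ± 0.25 (SE; limma, adjusted p = 2.76e-06), Hoxb7, at 2.84, Hoxb9, at 2.77, and Hoxb8, at 2.51. The median was 1.36 over the members and 0.17 over all genes tested. Both day 16 libraries lay above all 4 XEN libraries for 32 of 35 members (25.6% of all genes). The members without a call included Hoxa13 (0.42), Hoxc11 (0.17), Hoxc12 (0.05) and Hoxc13 (-0.27). Without the second day 16 library 15 were called, and 14 in a fit of these libraries alone.

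XEN cells were not empty of Hox mRNA. The CeXEN libraries had 4 and 10 members detected, with Hoxc4, Hoxa10, Hoxc10 and Hoxc9 at 1 FPKM or more in both. Hoxc5 was at 0.881 and 3.47 FPKM in them and Hoxa7 at 0.669 and 2.42. The second CeXEN library, with the larger Hox sum, also has a fibroblast marker sum of 41.2 FPKM against 1.52 in the first, and its part in the Hox values was not tested. The eXEN libraries had 6 and 5 members detected, with Hoxa7, Hoxa10, Hoxb4 and Hoxc13 among those in both. CeXEN and eXEN were not compared by a test.

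In CiPSC the fibroblast code was gone from most members. Against MEF, 26 of 35 members were called in CiPSC (37.0% of all genes were), and all 26 were lower (15.3% of all genes were called lower and 21.7% higher). Hoxc6 fell most, by a log2 difference of -4.25 ± 0.23 (SE; limma, adjusted p = 3.8e-09). It was followed by Hoxc10 (-3.72), Hoxc8 (-3.55), Hoxb9 (-3.27), Hoxa10 (-3.03), Hoxb8 (-3.01), Hoxd8 (-2.90) and Hoxa9 (-2.82). The median was -1.61 over the members and 0.25 over all genes tested. Called lower were 14 of 15 central, 8 of 15 posterior and 4 of 5 anterior genes tested, or 8 of 11 Hoxa, 8 of 9 Hoxb, 7 of 9 Hoxc and 3 of 6 Hoxd. All 7 lines lay below both MEF libraries for 28 of 35 members (21.6% of all genes) and above them for 2 (37.4%). Without line C3, the shallowest, 27 members were called: 26 lower and 1, Hoxc13, higher (1.003).

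Of the 35 members 9 did not pass in CiPSC against MEF. Log2 differences among them were -0.35 for Hoxa4, 0.01 for Hoxa13, 0.96 for Hoxb13, -0.05 for Hoxc12, 0.97 for Hoxc13, -0.68 for Hoxd10, -0.70 for Hoxd11 and 0.09 for Hoxd13. All 4 genes of paralog group 13 are among them. Hoxc13 and Hoxb13 had adjusted p of 0.00593 and 0.0386 in limma but a log2 difference under 1. One or both passed as higher without the first MEF library, without C3, G1, N4 or N6, and with the pseudocount of 0.1. The calls of Hoxa2 and Hoxa3 were lost without the second MEF library (-0.77 and -0.92) or without line N6 (-0.99 and -0.98), and that of Hoxa3 also without line N4 (-0.99).

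Many members were also lower in CiPSC than at day 16. Of 35 members 22 were called between CiPSC and day 16 (29.9% of all genes were), and all 22 were lower in CiPSC (17.0% of all genes). The largest log2 differences were those of Hoxa9, at -3.91 ± 0.40 (SE; limma, adjusted p = 2.41e-06), Hoxa10, at -3.12 ± 0.39 (SE; limma, adjusted p = 1.86e-05), Hoxc4, at -2.72, Hoxc5, at -2.52, Hoxb7, at -2.46, Hoxa7, at -2.37, and Hoxd9, at -2.37. The median was -1.42 over the members and -0.02 over all genes tested. All 7 lines lay below both day 16 libraries for 24 of 35 members (28.4% of all genes). Hoxa9 and Hoxc4 are members that had not fallen by day 16, while for Hoxc6 the difference of CiPSC from day 16 was -1.96 and that of day 16 from MEF -2.28. These comparisons share their day 16 libraries. Without the second day 16 library 15 members were called: the calls of Hoxa3, Hoxb2, Hoxb3, Hoxb4, Hoxb6, Hoxd10 and Hoxd11 were lost, with log2 differences between -1.09 and -0.64. Hoxb2 was also lost without C1, G1, G3, N4 or N6 (limma, adjusted p between 0.0524 and 0.0597).

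By group mean, paralog group 13 had the highest sum in ESC. Its genes summed to 5.28 and 6.99 FPKM in ESC and to 2.75 to 7.72 in the CiPSC lines. Group 9 had 5.47 and 2.71 FPKM in ESC and 0.677 to 3.46 in CiPSC. Group 6, among the highest in MEF, was at 0.134 and 0.0470 FPKM in ESC and 0 to 0.624 in CiPSC. The group 13 sum was above both MEF values in both ESC libraries and in all 7 CiPSC lines.

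No member was called between CiPSC and ESC with limma, against 0.0601% of all genes in either direction, and 1 of 35 had an unadjusted p under 0.05 (8.48% of all genes). That gene was Hoxc12, with a log2 difference of -0.51 ± 0.24 (SE; limma, adjusted p = 0.587). The median over the members was 0.00 and the largest difference was that of Hoxb9, at -0.76 ± 0.41 (SE; limma, adjusted p = 0.652). A p that misses the threshold does not show equal levels, and the SE of Hoxb9 leaves room for a difference of more than 1 on the log2 scale. The lines were not alike: 1 to 15 members were detected per line, with 7, 8 and 15 in C1, C2 and C3, 3 and 4 in G1 and G3, and 1 in each of N4 and N6. Of those detected in C3, the shallowest line, Hoxa3, Hoxb7, Hoxa7 and Hoxa9 have effective fragment numbers of only 1.0, 2.7, 3.1 and 3.2. Those of Hoxb13, Hoxb4 and Hoxb2 are 46.7, 33.4 and 30.1 there. The fibroblast marker sum was 43.0 to 78.6 FPKM in C3, G1, G3, N4 and N6, 5.64 and 5.81 in C1 and C2, and 4.51 and 4.90 in ESC, and its part in the Hox values was not tested.

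Genes that work with Hox proteins or control the clusters were taken from lists by function, and values in parentheses after gene names are log2 differences from limma. For the lists, the shares of all genes tested to read against are 17.1% higher and 9.32% lower in intermediate cells against MEF, and 21.7% higher and 15.3% lower in CiPSC against MEF. Of 9 TALE cofactors, which bind DNA beside Hox proteins, 3 fell in the intermediate cells against MEF, Pknox2 (-2.06) and Meis3 (-1.64) among them, with a list median of -0.71. In CiPSC against MEF 4 of 9 fell, among them Meis1 (-3.14), Meis3 (-3.08) and Meis2 (-2.51), and 2 rose. Of 10 tested Cdx and MLL complex genes, activators of the clusters, 1 rose in the intermediate cells: Cdx2, the trunk and trophoblast factor, listed at 0 in both MEF libraries, read 6.26 at day 12, 1.84 and 3.91 at day 16, 2.36 at day 20, 5.73 at day 26 and 1.98 at day 28. In CiPSC against MEF 7 of these 10 rose, led by Cdx1 (4.30), Ash2l (2.44), Wdr5 (2.23) and Kmt2b (1.35), and none fell.

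Of 15 Polycomb genes, whose products silence Hox clusters, 4 rose in the intermediate cells against MEF: Ezh1 (2.74), Cbx7 (2.49), Jarid2 (1.98) and Rnf2 (1.54). In CiPSC against MEF 10 rose and 3 fell, with Cbx7 (5.65), Jarid2 (4.51), Phc1 (3.68) and Eed (2.27) at the top and a list median of 1.26. Of 8 genes of the retinoic acid response, 6 rose in the intermediate cells, led by Cyp26a1 (9.13) and Cyp26b1 (3.46), which break retinoic acid down, and Stra6 (7.78), which takes up its precursor. In CiPSC against day 16, 7 of these 8 fell (17.0% of all genes did) and Stra8 rose (4.95).

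Other positional genes of the mesenchyme did not all follow the Hox genes. Of 20 tested, 10 fell (9.32% of all genes did) and 4 rose (17.1%, a like share) in the intermediate cells against MEF, with Prrx1 (-3.27) and Tbx15 (-2.95) down and the hindlimb gene Pitx1 (6.18) up. Their median was -0.86, beside -0.27 over the Hox members and 0.22 over all genes. In CiPSC against MEF 13 of 20 fell (15.3% of all genes), led by Prrx1 (-6.35), and 2 rose (21.7%). Of 6 tested noncoding RNAs from inside the Hox clusters, Hoxa11os rose in the intermediate cells (1.07) while Hoxb3os (-2.05), Hoxa11os (-2.02) and Hoxb5os (-1.63) fell in CiPSC against MEF. At day 16 against XEN cells all 6 were called higher (12.0% of all genes). These RNAs overlap Hox genes, so their fragments and those of the Hox genes cannot be told apart without the strand.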

How the data were processed

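RNA-seq libraries of 21 mouse samples were taken from the authors' gene tables, whose deposited values are FPKM per gene. Per the submitters' processing notes, TopHat and Cufflinks were used with mm10. Versions, gene model, strandedness and total reads were not given in the sources used here. Precision and relative depth were therefore judged from the values and their deposited upper confidence bounds. Several loci of a gene were summed.

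From these, log2(FPKM + 1) of genes with at least 1 FPKM in at least 2 libraries (16650 genes) was fitted with limma 3.58.1 (R 4.3.3; 1 coefficient per group, eBayes with trend, 11 residual degrees of freedom), with Benjamini-Hochberg adjustment over all genes. Days with 1 library borrow the spread of the other groups. The trend on day has 4 residual degrees of freedom. Summed FPKM was compared by exact two-sided permutation, enumerated in Python 3.11.15 (numpy 2.4.6, pandas 2.3.3). The fits were tested on simulated data, where the 6 group comparisons found 72% to 86.5% of genes with a log2 change of 2.

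Values in every library are given for the 3 members highest in MEF in each cluster and the 2 highest in each other group, and for lists up to 4 called genes with the largest change in a comparison are named. Some genes that this rule names are not reported here, though counts, sums and medians include them. Hoxa13, Hoxb1, Hoxb13 and other members were described after their values were seen. Members and lists were chosen with earlier results of these data known. Alternatives covered the pseudocount (0.1), the filter (none, or 5 FPKM), quantile and median-of-ratios scaling, the prior, the libraries in the fit, a replicate block and leaving out each library. Settings by processing status were added after seeing the data. Macrophage, neuronal, striated muscle and endothelial markers were also summed: they reached 104, 13.7, 66.0 and 30.8 FPKM at most in MEF and intermediate libraries.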

Additional observations from a re-analysis of the deposited data

Results flagged for a closer look

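Among the 7 CiPSC lines, 11 of the 43 sets of values examined (each Hox gene's level other than Hoxd3, which is at 0 in all 7, and the sums of each cluster and of all) had 1 line whose gap to its nearest neighbour took more than 0.568 of the whole range, Dixon's limit for 7 values, which chance passes in about 1 set in 20. In 9 of the 11 the line was C3, which has the lowest relative depth (0.401) and the highest fibroblast marker sum (78.6 FPKM) of the lines. The part of either in its Hox values was not tested.

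The summed Hoxb level of C3 was 16.04 FPKM, with the other lines between 1.467 and 7.381. Within that cluster Hoxb13 was at 4.416 FPKM (others 0.376 to 1.30), Hoxb2 at 4.23 (others 0.131 to 1.13), Hoxb4 at 2.714 (others 0.224 to 0.834) and Hoxb7 at 1.195 (others 0 to 0.432). In the other clusters Hoxa9 was at 1.537 FPKM (others 0.0777 to 0.695), Hoxd8 at 1.327 (others 0.260 to 0.521) and Hoxa2 at 0.2532 and Hoxd12 at 0.08091, both under detection. Line C2 stood apart in Hoxa6 at 0.2768 FPKM, also under detection, and line G3 in Hoxc13 at 3.815 FPKM (others 1.495 to 2.47). Without C3, limma called 27 Hox genes between CiPSC and MEF in place of 26, the added one (Hoxc13) as higher, and 0 between CiPSC and ESC as before.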

How the results depend on the processing

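The number of Hox genes called against MEF at day 16 was 7, and 5 to 10 when single libraries were left out, but 0 with only those groups in the fit. For the intermediate cells against MEF it was 11, with 9 to 13 on leaving out single libraries, 7 with a filter at 5 FPKM and 4 with only those groups in the fit. With day 16 replicate 2 and day 28 alone 11 were called, and with the 4 libraries that carry the low-data status 9. CiPSC against MEF gave 26 (24 to 27), and 15 with the filter at 5 FPKM, which tests 16 members. CiPSC against day 16 gave 22 (15 to 25), and CiPSC against ESC 0 (0 in each). Day 16 against XEN gave 23 (15 to 24, lowest without day 16 replicate 2), 14 with the filter at 5 FPKM and 14 with only those groups in the fit. Under quantile scaling the calls of all genes at day 16 against MEF split into 1621 higher and 1724 lower, in place of 2219 and 1233. With only the compared groups in the fit, 0 of all genes were called at day 16 against MEF. For intermediate cells against MEF 1136 were called higher and 474 lower, in place of 2844 and 1551. Day 16 against XEN gave 951 higher and 106 lower of all genes there, in place of 2002 and 312. The summed Hox difference of CiPSC from ESC of -2.64 FPKM ran from -5.98 to 0.284 on leaving out single libraries and turned positive without ESC replicate 1. No call of a member changed sign under any alternative.

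Replicate numbers were not treated as pairs. Differences between the replicates of a group correlated between groups at -0.116 to 0.051, which gives no sign of pairing but cannot exclude it. With the replicate number as a block, 6, 11, 22, 26, 0 and 23 members were called in the 6 group comparisons, and Hoxb2 was lost at day 16 against MEF (adjusted p = 0.0504 in limma).

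Members under about 1 FPKM have low effective fragment numbers, and days 12, 20, 26 and 28 have 1 library each.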

Other observations

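Hoxb1 and the summed Hox level of the 7 CiPSC lines did not overlap between the letters of the line names. How many other genes separate in the same way was not counted, so this cannot be called particular to Hox genes. Hoxb1, under 1 FPKM in ESC and in all lines but C3, was at 0.657, 0.538 and 1.40 FPKM in the C lines, 0.356 and 0.123 in the G lines and 0.0255 and 0 in the N lines. Its effective number of fragments was 9.2 or fewer in every line where it was above 0. Summed Hox was 25.1, 27.5 and 41.3 FPKM in the C lines, 18.7 and 21.03 in the G lines and 8.02 and 7.28 in the N lines.

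Outside the Hox clusters, Cdx1, a retinoid and Wnt target that activates Hox genes, was at 30.5, 21.02 and 22.8 FPKM in the C lines, 46.0 and 27.6 in the G lines and 6.84 and 5.73 in the N lines, so that the C and G lines overlap and both N lines are lower. Stra8, a retinoid-induced germ cell gene, was at 164, 173 and 137 FPKM in the C lines, 22.7 and 60.6 in the G lines and 21.5 and 15.1 in the N lines, with 164 and 125 in ESC. These genes were picked after their values were seen, no test was made, and the letters were not explained in the sources used here.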
